A study of Mus musculus with 12 samples.

Results

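The genes described are those of oxidative phosphorylation in migratory dendritic cells of mouse liver, pancreas and duodenum. They were taken by name from the deposited table: symbols starting Nduf, Uqcr, Cox4 to Cox8 or Atp5, the symbols Sdha to Sdhd, and the mitochondrially encoded mt-Nd, mt-Co, mt-Atp and mt-Cytb genes, without names marked -ps. This gave 111 of 55401 genes, 98 encoded in the nucleus and 13 in mitochondrial DNA. By complex there were 56 in complex I, 4 in complex II, 9 in complex III, 22 in complex IV and 20 in complex V. The name pattern also took in 8 assembly factors of complex I (Ndufaf genes), the supercomplex factor Cox7a2l and 12 paralogues, gene copies or tissue-restricted isoforms, so the set is wider than the subunits alone. It does not hold every subunit either: Cyc1 of complex III has another name and was read with the electron carriers.

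RNA was sequenced in bulk from polyA RNA of dendritic cells sorted out of 3 organs of B6 mice aged 6 to 8 weeks, with 4 libraries per organ and 2 mice pooled in each. The gate took live CD45+ cells that lacked lineage markers and CD11b and carried CD11c, CD103 and high MHC class II. No treatment or genotype differed between the groups. The comparisons ask how gene expression of these cells differs by organ; single-cell data of the same series were not used.

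Oxidative phosphorylation makes ATP in the inner mitochondrial membrane. Complexes I and II pass electrons from NADH and succinate to ubiquinone, complex III passes them on to cytochrome c, and complex IV hands them to oxygen. Complexes I, III and IV pump protons, and complex V, the ATP synthase, uses the gradient to make ATP. Every complex except complex II combines subunits from mitochondrial DNA with subunits imported from the cytosol. The mitochondrial ones are core membrane subunits in complexes I, III and IV and part of the membrane proton channel in complex V, whose catalytic head is nuclear. Mouse dendritic cells grown from bone marrow are known to rely on this pathway at rest and to turn to glycolysis when Toll-like receptors are engaged.

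The promoters of nuclear members are shown first, since many of these genes were lower in the same comparisons. RefSeq windows of GRCm38.p6, 250 bases before to 50 bases after a start, were found for 76 of the 98 nuclear members (81 windows). The 150 bases before the start are printed 5′ to 3′ on the strand of the gene for 4 members that were lower in liver and in pancreas or in liver alone, and for Sdhb, which was not called. Capitals mark a match to one of the motifs given after the sequences.
Uqcr11, chr10:80406822-80406971, minus strand: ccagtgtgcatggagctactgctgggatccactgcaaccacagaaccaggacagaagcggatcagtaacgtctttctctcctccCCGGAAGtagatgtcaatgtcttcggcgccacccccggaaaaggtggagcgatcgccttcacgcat
Atp5k, chr5:108434400-108434549, minus strand: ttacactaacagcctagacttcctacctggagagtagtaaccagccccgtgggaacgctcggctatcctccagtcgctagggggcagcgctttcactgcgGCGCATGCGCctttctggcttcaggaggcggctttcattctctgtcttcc
Cox5a, chr9:57521082-57521231, plus strand: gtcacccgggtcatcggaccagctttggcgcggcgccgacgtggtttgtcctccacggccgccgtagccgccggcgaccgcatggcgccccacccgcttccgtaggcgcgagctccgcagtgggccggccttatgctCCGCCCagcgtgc
Ndufs5, chr4:123718187-123718336, minus strand: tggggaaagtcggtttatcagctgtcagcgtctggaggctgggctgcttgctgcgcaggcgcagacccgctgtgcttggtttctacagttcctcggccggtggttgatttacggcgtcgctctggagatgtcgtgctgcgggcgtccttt
Sdhb, chr4:140961121-140961270, plus strand: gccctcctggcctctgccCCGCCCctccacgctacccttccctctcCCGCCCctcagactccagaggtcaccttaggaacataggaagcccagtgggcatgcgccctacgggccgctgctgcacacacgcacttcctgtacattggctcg

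Each motif was searched as exact letters on both strands of the 300 base window. The NRF1 motif, GCGCA followed by its own reverse complement, was in 8.64% of the members' windows, against 0.971% of all 32851 windows. The ETS motif bound by GABP, CCGGAAG, was in 23.5% of the members' windows, against 8.86% of all windows, and the YY1 motif, AAGATGGC, in 13.6% against 2.75%. The Sp1 motif GGGCGG was in 44.4% against 35.7%, and TATAAA in 11.1% against 13.6%. Of the 37 matched members that were lower in liver than in duodenum, 11 held the ETS motif, 8 the YY1 motif and 3 the NRF1 motif, and of the other 39 matched members 8, 3 and 4 held them. Uqcr11 holds the ETS letters 66 bases before its start and Atp5k holds the NRF1 letters 50 bases before it. In the printed stretches, Cox5a and Sdhb hold the Sp1 letters on the other strand, and Ndufs5 holds none of the motifs. Over the whole 300 base window, Atp5k and Sdhb also hold the ETS letters. The same 150 bases of Atp5g3, Ndufc1 and Ndufa9, which were also lower in both organs, are not printed and hold none of the motifs. Over the whole window, Ndufc1 and Ndufa9 hold the YY1 letters. A match is a description of letters and not of binding.

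The 12 libraries held 220.9 to 356.1 M estimated counts. The sorted cells carried the cDC1 genes that the gate implies: the 9 listed markers summed to 2050 to 2269 TPM (transcript abundance scaled for gene length and library size) in liver, 1851 to 2019 TPM in pancreas and 1563 to 2104 TPM in duodenum. Other cells differed by organ. Plasma cell markers (11 of 12 at a mean of at least 1 TPM, Prdm1 below 1 TPM in every library) summed to 420.6 to 1781 TPM in liver, 459.9 to 2072 TPM in pancreas and 10094 to 15099 TPM in duodenum. The high liver and pancreas values were those of liver 2, pancreas 3 and pancreas 4, in which Igkc, the kappa light chain, was at 1277, 1196 and 1358 TPM and at most 2.73 TPM in the other 5. Ighm was at 91.9 to 102 TPM in liver and 94.6 to 239 TPM in pancreas. Ssr4 averaged 288 TPM in liver, 304 TPM in pancreas and 337 TPM in duodenum, and Xbp1 59.4, 64.2 and 71.1 TPM. These 2 genes thus differed little by organ and made up most of the lower liver and pancreas sums. Igha, the immunoglobulin A gene of intestinal plasma cells, was at 0.0535 to 0.204 TPM in liver and 0.314 to 3.57 TPM in pancreas, against 3207 to 5155 TPM in duodenum. Pancreatic acinar markers (18 of 18 found) summed to 1742 to 9987 TPM in pancreas, and to at most 9.41 TPM in liver and 27.8 TPM in duodenum. Hepatocyte markers (10 of 16 at a mean of at least 1 TPM, Apob, Fgb, Fga and Cps1 below 1 TPM in every library) summed to 145.8 to 203.9 TPM in liver, 240.4 to 293.7 TPM in pancreas and 31.1 to 37.9 TPM in duodenum. Most of that sum was Trf and Ass1 (80.8 and 36.8 TPM on average in liver, 178 and 90.3 TPM in pancreas), while Alb, the albumin gene, averaged 7.94 TPM in liver, 0.168 TPM in pancreas and 0.202 TPM in duodenum. Monocyte and neutrophil markers (4 of 9 at a mean of at least 1 TPM, Mpo and Elane below 1 TPM in every library) summed to 151 to 169.9 TPM in liver, 136 to 180.2 TPM in pancreas and 35.5 to 70.1 TPM in duodenum. Macrophage markers (5 of 12) summed to 13.7 to 19.4 TPM in liver, 15.5 to 22.8 TPM in pancreas and 5.68 to 9.52 TPM in duodenum. Both sums thus differed without overlap along the comparisons with duodenum, but single genes did not all follow them. Most of the monocyte and neutrophil sum was Ccr2 in liver and pancreas (128.9 and 140.7 TPM on average, against 12.25 TPM in duodenum). Ly6c2 averaged 21.99 TPM in liver, 6.529 TPM in pancreas and 31.48 TPM in duodenum. Most of the macrophage sum in pancreas was Timd4 (10.104 TPM). Adgre1 was higher in duodenum without overlap (4.028 TPM, against 0.9341 TPM in liver and 1.545 TPM in pancreas). Lymphocyte markers (2 of 11) summed to at most 16.4 TPM and intestinal epithelial markers (5 of 15) to at most 41.02 TPM in any library. Their part in the results was not tested. In bulk samples, fewer cells of a type and less RNA per cell cannot be told apart.

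Oxidative phosphorylation transcripts were less abundant in the migratory dendritic cells of liver than in those of duodenum. The 111 genes summed to 26662, 28879.8, 29140 and 28181 TPM in liver libraries 1 to 4, 28188, 30207, 30952 and 28137 TPM in pancreas, and 36034, 36575, 37151 and 37148 TPM in duodenum. No liver or pancreas library reached the lowest duodenum library, and liver and pancreas overlapped. The means were 28216 ± 1112 TPM in liver, 29371 ± 1428 TPM in pancreas and 36727 ± 535 TPM in duodenum (SD, n = 4 each), so the liver sum was 0.768 and the pancreas sum 0.8 of that in duodenum. The nuclear genes made up 18353 ± 709 TPM in liver, 19085 ± 1284 TPM in pancreas and 23669 ± 1447 TPM in duodenum. The mitochondrial genes made up 9863 ± 661 TPM in liver, 10286 ± 624 TPM in pancreas and 13059 ± 1582 TPM in duodenum.

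By complex, the sums in liver were 0.716 of duodenum for complex I, 0.956 for complex II, 0.673 for complex III, 0.847 for complex IV and 0.781 for complex V. Complex I summed to 8099 ± 434 TPM in liver, 8485 ± 440 TPM in pancreas and 11309 ± 232 TPM in duodenum (SD, n = 4 each). Complex III summed to 2520.3 ± 83.3 TPM in liver, 2843 ± 146 TPM in pancreas and 3747 ± 125 TPM in duodenum. Every liver library also lay below every pancreas library for complex III. Complex V summed to 9437 ± 335 TPM in liver, 9558 ± 519 TPM in pancreas and 12078 ± 168 TPM in duodenum. Complex IV summed to 7840.3 ± 307 TPM in liver, 8213 ± 351 TPM in pancreas and 9259 ± 101 TPM in duodenum. Complex II, at 319 ± 14.6 TPM in liver, 273 ± 12.9 TPM in pancreas and 334 ± 40.2 TPM in duodenum, overlapped between each of those organs and duodenum, and all liver libraries lay above all pancreas libraries.

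**Figure D1:**
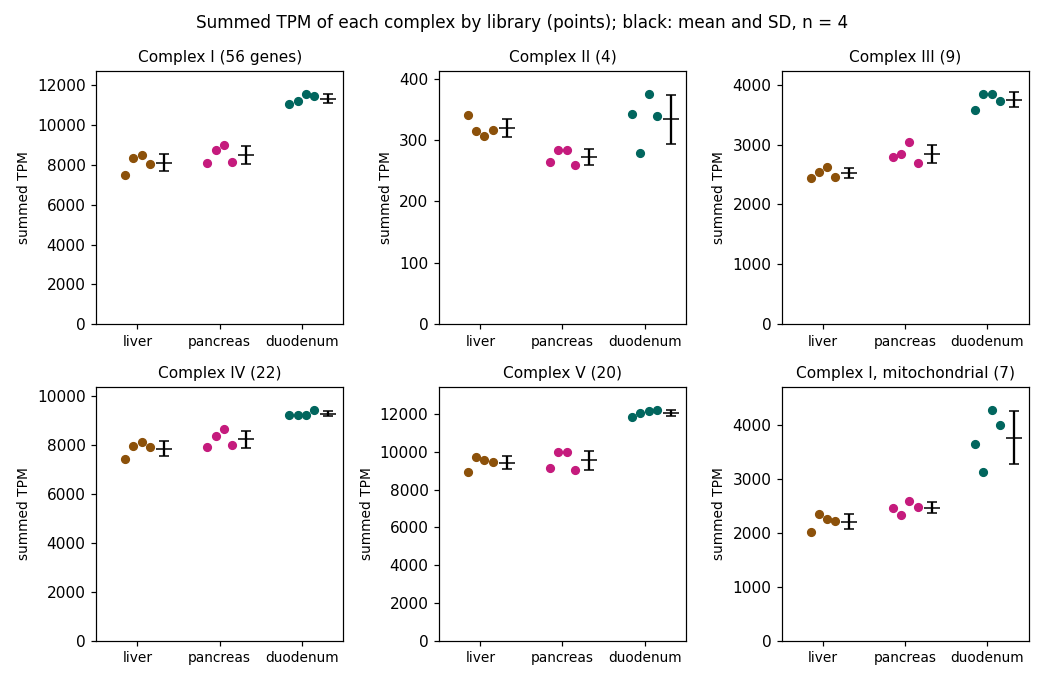
Summed TPM of the genes of each complex in each library (points) for liver, pancreas and duodenum, with the mean and SD of 4 libraries in black; the last panel holds the 7 mitochondrially encoded genes of complex I. The 4 duodenum libraries lie above all liver and pancreas libraries for complexes I, III, IV and V, and overlap both for complex II.

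Of the 111 genes, 108 passed the filter on low counts and were tested; the exceptions were Cox6c2, Ndufs6b and a second gene named Atp5o that was listed at 0 in all 12 libraries. In liver against duodenum, 51 of the 108 were lower and 0 higher at an adjusted p under 0.05 (edgeR quasi-likelihood test, Benjamini-Hochberg over 44624 genes). Over all genes tested, 3.95% were called lower and 3.37% higher, and over the 6620 genes with a mean of at least 10 TPM, 15.0% were called lower and 6.78% higher. All 51 belonged to the 97 members at that level. At an unadjusted p under 0.05, in either direction, there were 84 of the 108 members. At that cut there were 8540 of the 44624 genes tested and 2932 of the 6620 genes of at least 10 TPM. The median log2 difference was -0.50 over the 108 members, -0.15 over all genes of at least 10 TPM and 0.10 over all genes tested. In TPM, all 4 liver libraries lay below all 4 duodenum libraries for 55 of the 111 members and above them for 1, against 4.48% and 11.2% of all genes tested and 15.8% and 18.4% of those of at least 10 TPM.

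In pancreas against duodenum, 26 of the 108 members were lower and 0 higher. Over all genes tested, 3.94% were called lower and 3.76% higher, and over genes of at least 10 TPM, 13.9% were called lower and 8.22% higher. The median log2 difference was -0.38 over the members, -0.12 over genes of at least 10 TPM and 0.09 over all genes tested. TPM did not overlap and was lower in pancreas for 56 of the 111 members and higher for 2, against 5.34% and 8.21% of all genes tested and 18.5% and 16.2% of those of at least 10 TPM. Both comparisons use the same 4 duodenum libraries. In liver against pancreas no member was called in either direction (edgeR quasi-likelihood test), and 2 were called each by DESeq2 and by limma. By edgeR, 1.11% of all genes tested and 3.32% of those of at least 10 TPM were called. At an unadjusted p under 0.05 there were 12 of the 108 members. At that cut there were 4020 of the 44624 genes tested and 1121 of the 6620 of at least 10 TPM. The member share was thus no larger than that of abundant genes. The median difference there was -0.10, and the lowest adjusted p was 0.0729, for mt-Nd3.

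The counts moved with single libraries, and duodenum 2 moved them most. Without duodenum 2 they were 84 members lower in liver and 58 lower in pancreas, while the share called lower was 7.17% and 6.66% of all genes tested and 31.8% and 28.5% of those of at least 10 TPM. Without duodenum 1, 3 or 4 the liver count was 31 each time, beside 10.6%, 9.65% and 10.3% of genes of at least 10 TPM called lower. The pancreas count was 16 without duodenum 1 and 17 without duodenum 4, beside 10% and 10.2% of those genes. Without pancreas 3 the pancreas count was 41, beside 15.5% of them. Without the 3 libraries of liver and pancreas that are high in Igkc (liver 2, pancreas 3 and pancreas 4) the counts were 24 and 7. Beside them, 9.21% and 7.49% of genes of at least 10 TPM were called lower, so the pancreas count was then no larger a share than that of all abundant genes. Fewer libraries were left to test, and the cause of the lower counts was not tested. The median member difference was -0.54 in liver and -0.50 in pancreas, against -0.50 and -0.38 with all 12 libraries. Over genes of at least 10 TPM the medians were then -0.20 and -0.22, against -0.15 and -0.12 with all 12 libraries. The 7 in pancreas were mt-Nd1, Ndufs5, Ndufa4, Uqcr11, Uqcrq, Cox5a and Atp5g3. The 24 in liver were mt-Nd1, mt-Nd3, mt-Nd4l, mt-Cytb, Ndufa1, Ndufa2, Ndufa9, Ndufb6, Ndufb9, Ndufc1, Ndufs4, Ndufs5, Ndufs6, Ndufv3, Uqcr11, Uqcrq, Cox5a, Cox6a1, Cox6c, Cox7a2, Atp5g3, Atp5j2, Atp5k and Atp5l, and every other member call was lost there. Of the 51 genes lower in liver, 26 were called whichever single library was left out, and of the 26 lower in pancreas, 14 were. By coding, 45 of 95 nuclear members tested and 6 of 13 mitochondrial members were lower in liver, and 22 and 4 were lower in pancreas. The nuclear count in liver was 27 without duodenum 1, 3 or 4 and 71 without duodenum 2, and in pancreas it was 14 without duodenum 1, 49 without duodenum 2 and 35 without pancreas 3. The mitochondrial count was 13 in liver and 9 in pancreas without duodenum 2.

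**Figure D2:**
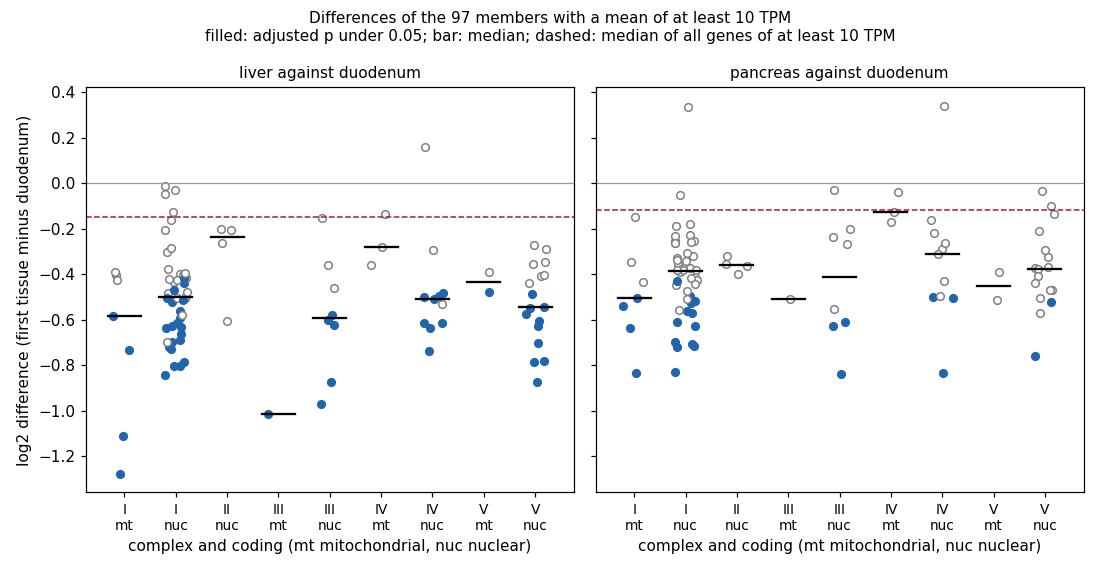
Log2 difference of liver minus duodenum (left) and pancreas minus duodenum (right) for the 97 members with a mean of at least 10 TPM, by complex and coding; filled points passed the test, bars are medians and the dashed line is the median of all 6620 genes at that level. In liver 96 of 97 lie below 0, and complex II (median -0.24) lies nearer to the dashed line at -0.15 than the other complexes.

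Complex I, the NADH dehydrogenase, was lower in liver in 26 of the 55 genes tested and in pancreas in 18. In liver the count was 15 without duodenum 1 or 4, 14 without duodenum 3, 16 without liver 1, 17 without liver 4 and 44 without duodenum 2, and the pancreas count was 10 without duodenum 1, 11 without duodenum 4 and 33 without duodenum 2. Its 7 mitochondrially encoded subunits, all of the membrane arm, summed to 2206 ± 140 TPM in liver, 2464 ± 104 TPM in pancreas and 3763 ± 491 TPM in duodenum. That is 0.586 of duodenum in liver and 0.655 in pancreas. Of the 7, 4 were lower in liver and the same 4 in pancreas: mt-Nd1, mt-Nd3, mt-Nd4 and mt-Nd4l. Without duodenum 2 all 7 were lower in liver. The pancreas count was 2 without duodenum 1, duodenum 3, pancreas 1 or pancreas 4, and 1 without duodenum 4 or pancreas 2.

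mt-Nd1, which sits beside the quinone site, was at 1107, 1261, 1259.5 and 1257 TPM in liver, 1374, 1329, 1459 and 1389 TPM in pancreas, and 2258, 1854, 2778 and 2498 TPM in duodenum. No library of liver or pancreas overlapped duodenum. The log2 difference was -1.11 ± 0.15 in liver (SE, adjusted p = 0.000265, edgeR quasi-likelihood test) and -0.83 ± 0.15 in pancreas (adjusted p = 0.00221). mt-Nd3, a small membrane subunit, was at 117, 164, 173 and 141 TPM in liver, 226, 186, 207 and 258 TPM in pancreas, and 316, 339, 307 and 336 TPM in duodenum. Its 3 groups did not overlap, with liver lowest and duodenum highest. The difference was -1.28 ± 0.16 in liver (adjusted p = 0.000143) and -0.64 ± 0.16 in pancreas (adjusted p = 0.0193), the second of which was lost without duodenum 4 or pancreas 2 (adjusted p = 0.0705 in the weaker of these).

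mt-Nd4l and mt-Nd4 are neighbouring genes read from a shared transcript. mt-Nd4l averaged 237 ± 15.2 TPM in liver, 253 ± 12.9 TPM in pancreas and 350.1 ± 44.4 TPM in duodenum (SD, n = 4 each), a difference of -0.73 ± 0.15 in liver (adjusted p = 0.0062) and -0.54 ± 0.15 in pancreas (adjusted p = 0.035). mt-Nd4 averaged 223 ± 15.9 TPM in liver, 221 ± 14 TPM in pancreas and 297 ± 42.1 TPM in duodenum, a difference of -0.58 ± 0.14 in liver (adjusted p = 0.0206) and -0.50 ± 0.14 in pancreas (adjusted p = 0.0421). The liver call of mt-Nd4 was lost without liver 1, duodenum 1, duodenum 3 or duodenum 4. Both pancreas calls were lost without any of duodenum 1, 3 or 4 or pancreas 1, 2 or 4. The other 3, mt-Nd2, mt-Nd5 and mt-Nd6, had differences of -0.43, -0.39 and -0.40 in liver and -0.35, -0.43 and -0.15 in pancreas, and none passed the test. In TPM, 4 of the 7 mt-Nd genes lay below duodenum without overlap in liver and 6 in pancreas. The shares of genes of at least 10 TPM were 15.8% and 18.5%.

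**Figure D3:**
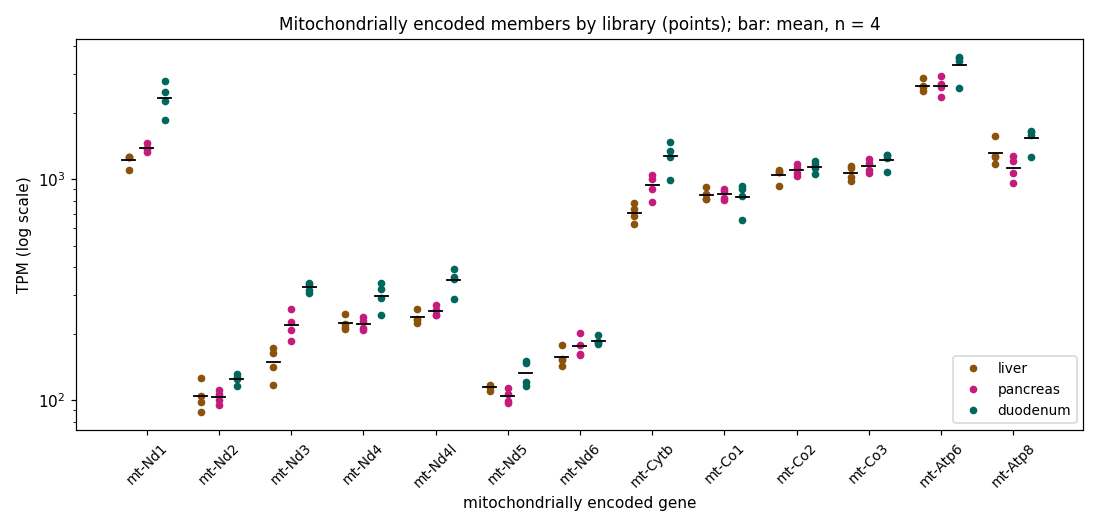
TPM (log scale) of the 13 mitochondrially encoded members in each library of liver, pancreas and duodenum; bars are means of 4 libraries. mt-Nd1 and mt-Nd3 are among the genes that separate duodenum from the other organs, while mt-Co1, mt-Co2 and mt-Co3 overlap in all 3.

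The 7 nuclear core subunits of complex I, which carry the flavin and iron-sulphur centres of the matrix arm, did not pass the test in either organ. They summed to 667 ± 25.3 TPM in liver, 616 ± 49.5 TPM in pancreas and 730.2 ± 52.4 TPM in duodenum, 0.913 of duodenum in liver and 0.844 in pancreas. Liver overlapped duodenum, and pancreas lay below it in all 4 libraries. Ndufs1, the largest iron-sulphur subunit, averaged 38.2 ± 6.505 TPM in liver, 32.1 ± 1.98 TPM in pancreas and 34.6 ± 7.04 TPM in duodenum (SD, n = 4 each; differences -0.03 in liver and -0.19 in pancreas). Ndufv1, which binds NADH, averaged 50.4 ± 3.27 TPM in liver, 44.2 ± 2.94 TPM in pancreas and 50.1 ± 12.4 TPM in duodenum (-0.16 and -0.26). Without duodenum 2, 4 of the 7 were lower in liver and 3 in pancreas. Without liver 1, pancreas 1 or pancreas 3, 1 was lower in liver, and without pancreas 3, 1 was lower in pancreas.

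The 30 nuclear accessory subunits of complex I, which surround the core and stabilise it, were lower in liver in 19 cases and lower in pancreas in 12, with medians of -0.51 and -0.43. In liver this was 10 without liver 1 or duodenum 3, 11 without duodenum 1 or 4 and 12 without liver 4, and the pancreas count was 19 without duodenum 2. Whether accessory and core subunits differed from each other was not tested. Ndufc1 was at 151, 183, 198 and 169.5 TPM in liver, 152, 194, 217 and 151 TPM in pancreas, and 272, 352, 247 and 266 TPM in duodenum. All liver and pancreas libraries lay below all duodenum libraries, and the difference was -0.84 ± 0.18 in liver (adjusted p = 0.00948) and -0.72 ± 0.18 in pancreas (adjusted p = 0.0224, lost without duodenum 1). Ndufa2, a small subunit of the matrix arm, was at 262, 287, 313 and 280.2 TPM in liver, 328, 343, 394 and 339.9 TPM in pancreas, and 396, 610.5, 397 and 402 TPM in duodenum. The groups followed the order liver, pancreas, duodenum without overlap, and the difference was -0.80 ± 0.15 in liver (adjusted p = 0.00452), while pancreas did not pass (-0.41 ± 0.15, adjusted p = 0.134).

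Ndufs5, which lies on the intermembrane-space side, was at 119, 144, 149 and 161 TPM in liver, 113, 123, 123 and 130.3 TPM in pancreas, and 193, 232, 196 and 212 TPM in duodenum. Liver and pancreas both lay below duodenum, at a log2 difference of -0.69 ± 0.14 (adjusted p = 0.00553) and -0.83 ± 0.14 (adjusted p = 0.00132). Ndufs6, a zinc-binding subunit, was at 69.8, 72.3, 77.5 and 80.7 TPM in liver, 81.96, 75.2, 75.5 and 70.9 TPM in pancreas, and 109, 155, 112 and 96.2 TPM in duodenum, with differences of -0.80 ± 0.14 in liver (adjusted p = 0.00206) and -0.70 ± 0.14 in pancreas (adjusted p = 0.00479). Ndufa9, which stabilises the joint of the arms, was at 64.3, 62.6, 48.4 and 49.99 TPM in liver, 48.04, 55.03, 51.3 and 43.7 TPM in pancreas, and 78.3, 68.9, 87.2 and 75.9 TPM in duodenum, with differences of -0.63 ± 0.15 in liver (adjusted p = 0.0156, lost without duodenum 3) and -0.72 ± 0.15 in pancreas (adjusted p = 0.0064, lost without liver 2, pancreas 3 and pancreas 4). None of these 3 genes overlapped between either organ and duodenum. Ndufs4, needed for the assembly of the NADH-binding end, averaged 96.8 ± 9.7 TPM in liver, 112 ± 18.1 TPM in pancreas and 149 ± 9.16 TPM in duodenum (SD, n = 4 each) and was lower in liver (-0.79 ± 0.16, adjusted p = 0.00791). Ndufv3 and Ndufb6 were also lower in both organs, at a log2 difference of -0.70 ± 0.12 and -0.63 ± 0.12 in liver (adjusted p = 0.0028 and 0.00491) and at a log2 difference of -0.43 ± 0.12 and -0.56 ± 0.12 in pancreas (adjusted p = 0.0484 and 0.0091). The pancreas call of Ndufv3 was lost without any of duodenum 1, 3 or 4 or pancreas 1, 3 or 4.

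Ndufa4 was named with complex I but is known to sit in complex IV. It was the most abundant nuclear gene of the complex I names, at 446, 490.3, 489.6 and 503 TPM in liver, 372, 439, 449.7 and 414 TPM in pancreas, and 607, 602, 614 and 651 TPM in duodenum. The groups did not overlap with duodenum, and the difference was -0.52 ± 0.13 in liver (adjusted p = 0.0228, lost without liver 1 or duodenum 1, 3 or 4) and -0.63 ± 0.13 in pancreas (adjusted p = 0.00682). Ndufa6, an accessory subunit that docks the mitochondrial acyl carrier protein, had another order of levels. It was at 366, 377, 417 and 377 TPM in liver, 488, 518, 501 and 483 TPM in pancreas, and 393, 407, 343 and 365 TPM in duodenum. Every pancreas library lay above every liver and duodenum library, but the difference did not pass the test against duodenum (0.33 ± 0.12, adjusted p = 0.104) or for liver against pancreas (-0.46 ± 0.12, 0.0846).

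Among the 8 Ndufaf assembly factors, which build complex I and are not part of it, Ndufaf8 and Ndufaf2 were lower in liver and Ndufaf8 and Ndufaf5 in pancreas. Ndufaf8 averaged 65.98 ± 9.51 TPM in liver, 66.5 ± 3.52 TPM in pancreas and 94.7 ± 18.6 TPM in duodenum (SD, n = 4 each; -0.66 ± 0.16 in liver, adjusted p = 0.0193, lost without duodenum 1, and -0.57 ± 0.16 in pancreas, adjusted p = 0.0413, lost without duodenum 1 or 4 or pancreas 1, 2 or 4). Ndufaf5 averaged 6.98 ± 1.96 TPM in liver, 6.29 ± 1.88 TPM in pancreas and 11.3 ± 2.24 TPM in duodenum and was lower in pancreas at a log2 difference of -0.91 ± 0.25 (adjusted p = 0.0343, lost without duodenum 1 or 3 or pancreas 1 or 2). The liver call of Ndufaf2 (-0.73 ± 0.21, adjusted p = 0.0495) was lost without liver 1, 3 or 4 or duodenum 3 or 4. Without duodenum 2 the numbers lower were 5 in liver and 4 in pancreas, and without pancreas 3 or 4 the liver number was 4. Ndufa4l2, an isoform induced in hypoxia, stayed below 1 TPM in all 12 libraries. Ndufb4c, which the GRCm38 transcripts list as a processed pseudogene, matches 390 of the 971 bases of the Ndufb4 transcript over its own whole length. Their liver means, 91.9 TPM for Ndufb4c and 32.1 TPM for Ndufb4, are therefore uncertain one by one.

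Complex II, succinate dehydrogenase, is wholly nuclear and also works in the TCA cycle. None of its 4 subunits passed the test in any comparison. Sdhb, its iron-sulphur subunit and most abundant transcript, was at 141, 133, 136 and 139 TPM in liver, 111, 110.3, 119.7 and 109 TPM in pancreas, and 138, 120.4, 161 and 146 TPM in duodenum. Liver and duodenum overlapped, all pancreas libraries lay below both, and the differences were -0.21 ± 0.13 in liver (adjusted p = 0.465) and -0.40 ± 0.13 in pancreas (adjusted p = 0.0935). Sdha, the flavoprotein, averaged 93.3 ± 3.57 TPM in liver, 78.8 ± 7.55 TPM in pancreas and 95.4 ± 18.7 TPM in duodenum (SD, n = 4 each), and Sdhd, a membrane anchor, 79.9 ± 9.05 TPM in liver, 71.7 ± 6.66 TPM in pancreas and 85.4 ± 5.17 TPM in duodenum. Sdhc, the other anchor, was the lowest at 8.796 ± 2.85 TPM in liver, 9.61 ± 2.91 TPM in pancreas and 11.9 ± 2.19 TPM in duodenum, with a difference of -0.61 ± 0.29 in liver (adjusted p = 0.269). Without duodenum 2, 2 of the 4 were lower in liver and 3 in pancreas, and without pancreas 3, 1 was lower in pancreas.

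Complex III, the cytochrome bc1 complex, was lower in liver in 6 of the 9 genes taken by name and in pancreas in 3. Its counts and sums leave out Cyc1, which was not called against duodenum in either organ. The pancreas count was 7 without duodenum 2 and 5 without pancreas 3. Its mitochondrial subunit, mt-Cytb, which carries both b haems, was at 684, 778, 735 and 628 TPM in liver, 1006, 908, 1050.2 and 787 TPM in pancreas, and 1261, 993, 1476 and 1345 TPM in duodenum. All liver libraries lay below all pancreas and duodenum libraries, while pancreas and duodenum overlapped through pancreas 1, pancreas 3 and duodenum 2. The difference was -1.01 ± 0.16 in liver (adjusted p = 0.00119) and -0.51 ± 0.16 in pancreas (adjusted p = 0.0698), and the pancreas difference passed the test without duodenum 2 or without pancreas 3.

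Uqcrq, a small membrane subunit, was the most abundant nuclear gene of complex III, at 377, 346, 389.9 and 389.8 TPM in liver, 382, 435, 472 and 378 TPM in pancreas, and 601, 737, 556 and 585 TPM in duodenum. Neither organ overlapped duodenum, and the difference was -0.87 ± 0.14 in liver (adjusted p = 0.00114) and -0.63 ± 0.14 in pancreas (adjusted p = 0.0103). Uqcr11, the smallest subunit, had the largest difference of the nuclear members called in liver, at 175, 195, 218 and 213 TPM in liver, 184, 223, 214 and 203 TPM in pancreas, and 291, 501, 329.9 and 301 TPM in duodenum. The difference was -0.97 ± 0.17 in liver (adjusted p = 0.00224) and -0.84 ± 0.17 in pancreas (adjusted p = 0.00553), and duodenum 2 was the highest library. Uqcrb averaged 349 ± 23.01 TPM in liver, 322 ± 8.38 TPM in pancreas and 467 ± 29.96 TPM in duodenum (SD, n = 4 each) and was lower in both organs (-0.58 ± 0.12, adjusted p = 0.00789 in liver; -0.61 ± 0.12, adjusted p = 0.00518 in pancreas). Uqcrfs1, the Rieske iron-sulphur protein that does the electron transfer, averaged 125 ± 12.5 TPM in liver, 131 ± 4.97 TPM in pancreas and 143 ± 16.9 TPM in duodenum and did not pass the test (-0.36 ± 0.13 in liver, adjusted p = 0.112; -0.20 ± 0.13 in pancreas, adjusted p = 0.451). Uqcrh, the acidic hinge subunit, was at 393 ± 20.8 TPM in liver, 403 ± 41.4 TPM in pancreas and 394 ± 75.7 TPM in duodenum with differences of -0.15 and -0.03.

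Complex IV, cytochrome c oxidase, has a core of 3 mitochondrial subunits that hold the haem and copper centres. None of the 3 passed the test in either organ. mt-Co1 averaged 852 ± 50.4 TPM in liver, 855 ± 46.8 TPM in pancreas and 832 ± 125 TPM in duodenum, mt-Co2 1050.5 ± 79.4 TPM in liver, 1099 ± 61.6 TPM in pancreas and 1141 ± 64.7 TPM in duodenum and mt-Co3 1071 ± 80 TPM in liver, 1148 ± 77.1 TPM in pancreas and 1227 ± 96.9 TPM in duodenum (SD, n = 4 each). All groups overlapped, with differences of -0.14, -0.28 and -0.36 in liver and -0.04, -0.13 and -0.17 in pancreas. Without duodenum 2 all 3 were lower in liver. mt-Co1 shares 483 bases at 99.79% identity with Gm29216, a nuclear copy listed at a mean of 1487 TPM, so its level is uncertain.

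Set against mt-Co3 of the same library, mt-Nd1 and mt-Cytb were also highest in duodenum. The ratio of mt-Nd1 to mt-Co3 was 1.12, 1.09, 1.12 and 1.23 in liver, 1.11, 1.21, 1.23 and 1.30 in pancreas, and 1.75, 1.71, 2.17 and 1.99 in duodenum. The ratio of mt-Cytb to mt-Co3 was 0.694, 0.676, 0.653 and 0.613 in liver, 0.813, 0.825, 0.886 and 0.736 in pancreas, and 0.980, 0.917, 1.15 and 1.07 in duodenum. Neither ratio overlapped between liver or pancreas and duodenum, in duodenum 2 as well as in the other 3. mt-Co2 over mt-Co3 ran from 0.940 to 1.05 in liver, 0.908 to 1.00 in pancreas and 0.881 to 0.975 in duodenum and overlapped. The ratios of mt-Nd4l and mt-Nd4 to mt-Co3 likewise lay below duodenum in every liver and pancreas library, while those of mt-Nd6 and mt-Atp6 overlapped. mt-Nd3 over mt-Co3 lay below duodenum in all liver libraries (0.119 to 0.154, against 0.239 to 0.313) and overlapped it in pancreas (0.169 to 0.241). With mt-Co1 in place of mt-Co3, mt-Nd3 and mt-Atp6 lay below duodenum in all liver and pancreas libraries, so their overlap depends on the gene they are set against. The ratios show unequal differences among mitochondrial genes and leave out the scaling between libraries.

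The 10 nuclear accessory subunits of complex IV were lower in liver in 8 cases and in pancreas in 3. Over all 21 genes of complex IV tested, the pancreas count was also 3, close to the 13.9% of genes of at least 10 TPM called lower there. The counts that follow are of the 10 accessory subunits. In liver this was 4 without duodenum 1 or 4 and 5 without liver 1 or duodenum 3. The pancreas count was 1 without duodenum 1 and 5 without duodenum 2 or pancreas 3. Cox5a, a subunit on the matrix side, was at 153, 167, 169.7 and 185 TPM in liver, 139.9, 148, 163 and 137 TPM in pancreas, and 215, 302, 249 and 245 TPM in duodenum. Neither organ overlapped duodenum, and the difference was -0.74 ± 0.14 in liver (adjusted p = 0.00369) and -0.84 ± 0.14 in pancreas (adjusted p = 0.00128), the lowest adjusted p of any member there. Cox7a2 averaged 327 ± 10.7 TPM in liver, 335 ± 24.3 TPM in pancreas and 455 ± 12.3 TPM in duodenum (SD, n = 4 each; -0.64 ± 0.12 in liver, adjusted p = 0.00487; -0.50 ± 0.12 in pancreas, adjusted p = 0.0188, lost without duodenum 1). Cox8a averaged 602 ± 32.3 TPM in liver, 565 ± 45.5 TPM in pancreas and 765 ± 47.9 TPM in duodenum (-0.51 ± 0.13 in liver, adjusted p = 0.0316, lost without liver 1 or 2 or duodenum 1, 3 or 4; -0.50 ± 0.13 in pancreas, adjusted p = 0.0317, lost without duodenum 1, 3 or 4 or pancreas 1, 2 or 4). Cox6a1, Cox6c and Cox6b1 were lower in liver at a log2 difference of -0.62 ± 0.15, -0.61 ± 0.12 and -0.50 ± 0.14 (adjusted p = 0.0202, 0.00678 and 0.0394), and the Cox6b1 call was lost without any of 7 single libraries (liver 1, 2 or 4, duodenum 1, 3 or 4, or pancreas 2). Cox5b and Cox7c completed the 8, at -0.50 and -0.48. Cox4i1, the largest nuclear subunit, was at 668, 693, 718 and 721 TPM in liver, 645, 711, 709.8 and 695 TPM in pancreas, and 725, 903, 699 and 754 TPM in duodenum. It overlapped in all 3 organs and did not pass the test (-0.29 ± 0.11 in liver, adjusted p = 0.154; -0.22 ± 0.11 in pancreas, adjusted p = 0.325). Cox7b was at 299.7 ± 24.7 TPM in liver, 288 ± 29.03 TPM in pancreas and 386 ± 51.8 TPM in duodenum and did not pass it either (adjusted p = 0.0622 in liver and 0.0818 in pancreas).

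Cox7a2l, counted here as a supercomplex factor, had the opposite order of levels to most members. Whether it acts as such in this mouse strain was not examined. It was at 386, 363, 372 and 387 TPM in liver, 401, 405, 394 and 406 TPM in pancreas, and 314, 269.8, 327 and 296 TPM in duodenum. Every liver and pancreas library lay above every duodenum library, but the differences of 0.16 ± 0.11 in liver (adjusted p = 0.521) and 0.34 ± 0.11 in pancreas (adjusted p = 0.0863) did not pass the test. It and Ndufa6 were the members whose TPM was higher in pancreas without overlap, and Cox7a2l was the one higher in liver. limma on log2(TPM + 1) called Cox7a2l higher in liver (0.32, adjusted p = 0.0104) and in pancreas (0.42, adjusted p = 0.0018).

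Isoforms of complex IV known from muscle, lung or testis were scarce. Cox4i2, the isoform of lung and hypoxia, Cox8b of muscle, and Cox7b2 and Cox8c of testis stayed below 1 TPM in all 12 libraries. Cox7a1, the muscle isoform, averaged 3.91 ± 1.8 TPM in liver, 3.22 ± 2.09 TPM in pancreas and 4.98 ± 0.828 TPM in duodenum (SD, n = 4 each), against 327 TPM or more for its ubiquitous partner Cox7a2. Cox6b2 of testis averaged 4.24 ± 2.34 TPM in liver, 6.56 ± 3.89 TPM in pancreas and 7.51 ± 1.12 TPM in duodenum, and Cox6a2, the muscle partner of Cox6a1, 0.949 ± 1.19 TPM in liver, 0.242 ± 0.218 TPM in pancreas and 2.23 ± 1.52 TPM in duodenum. All pancreas libraries of Cox6a2 lay below all duodenum libraries, and the difference missed the threshold (-3.31 ± 0.96, adjusted p = 0.0505); it passed it without any of duodenum 2, liver 1, liver 2, liver 4 or pancreas 4. Muscle and brown fat markers summed to 11.3 to 18.6 TPM in liver, 8.46 to 17.2 TPM in pancreas and 10.6 to 15.9 TPM in duodenum, with 5 of 9 listed below 1 TPM in every library (Acta1, Myh2, Myh6, Ucp1 and Cidea).

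Complex V, the ATP synthase, was lower in liver in 11 of 19 genes tested and in pancreas in 2. The pancreas count was no larger a share than the 13.9% of genes of at least 10 TPM called lower there. The liver count was 7 without duodenum 1, 3 or 4 and 18 without duodenum 2. The pancreas count was 9 without duodenum 2, 7 without pancreas 3 and 1 without duodenum 3 or 4. Of its mitochondrial subunits, mt-Atp6, the proton channel and most abundant member in TPM, averaged 2659 ± 158 TPM in liver, 2652 ± 236 TPM in pancreas and 3291 ± 476 TPM in duodenum and mt-Atp8 1318 ± 170.4 TPM in liver, 1129 ± 138 TPM in pancreas and 1535 ± 188 TPM in duodenum (SD, n = 4 each). Liver and duodenum overlapped for both. mt-Atp6 was called lower in liver (-0.48 ± 0.14, adjusted p = 0.0486), a call lost without any 1 of the 4 liver libraries, duodenum 1, 3 or 4 or pancreas 2, and it was not called in pancreas (-0.39 ± 0.14, adjusted p = 0.108). mt-Atp8 was called in neither (-0.39 ± 0.16, adjusted p = 0.199 in liver; -0.51 ± 0.16, adjusted p = 0.0775 in pancreas).

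In the catalytic head and its central stalk, Atp5e, the epsilon subunit, was the most abundant nuclear member of complex V, at 633, 655, 729 and 753 TPM in liver, 612, 785, 818 and 778 TPM in pancreas, and 924, 1627, 879 and 891 TPM in duodenum. Neither organ overlapped duodenum, duodenum 2 stood far above the other 3, and liver was lower at a log2 difference of -0.78 ± 0.19 (adjusted p = 0.0185, lost without liver 2, pancreas 3 and pancreas 4) while pancreas did not pass (-0.57 ± 0.19, adjusted p = 0.0826). Atp5b, the catalytic beta subunit, averaged 381 ± 14.8 TPM in liver, 362 ± 15.2 TPM in pancreas and 495 ± 55.7 TPM in duodenum (SD, n = 4 each) and was lower in liver (-0.54 ± 0.13, adjusted p = 0.0152, lost without duodenum 3) and pancreas (-0.52 ± 0.13, adjusted p = 0.0179, lost without duodenum 3 or 4). Atp5a1, the alpha subunit, averaged 192 ± 11.2 TPM in liver, 176 ± 8.98 TPM in pancreas and 232 ± 31.4 TPM in duodenum and did not pass (adjusted p = 0.0723 in liver and 0.053 in pancreas).

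The c ring, which turns with the proton flow, is encoded by 3 genes for the same mature protein. Atp5g3 was at 297, 297, 329.6 and 309.9 TPM in liver, 249, 331, 291 and 306 TPM in pancreas, and 455, 503, 472 and 478 TPM in duodenum. Neither organ overlapped duodenum, and the difference was -0.78 ± 0.13 in liver (adjusted p = 0.00174) and -0.76 ± 0.13 in pancreas (adjusted p = 0.00192). Atp5g1 was lower in liver (-0.61 ± 0.14, adjusted p = 0.0182, lost without duodenum 1 or 4) and not called in pancreas (-0.47 ± 0.14, adjusted p = 0.0637). Atp5g2 was called in neither (-0.40 ± 0.13 and -0.10 ± 0.13); it shares sequence with Gm10175, whose listed level was 170% of its own.

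Of the membrane subunits that shape the dimer, Atp5k, the e subunit, was at 142, 173, 192 and 151 TPM in liver, 162, 222, 229.5 and 181 TPM in pancreas, and 231, 381, 229 and 252 TPM in duodenum. Liver did not overlap duodenum and was lower at a log2 difference of -0.87 ± 0.20 (adjusted p = 0.0135), and pancreas 3 overlapped duodenum (-0.50 ± 0.20, adjusted p = 0.159). Atp5l, the g subunit, averaged 481 ± 25.8 TPM in liver, 566 ± 27.9 TPM in pancreas and 706 ± 139 TPM in duodenum (SD, n = 4 each) and Atp5j2, the f subunit, 246 ± 15.97 TPM in liver, 267 ± 33.3 TPM in pancreas and 342 ± 50.4 TPM in duodenum. Both were lower in liver (-0.70 ± 0.13, adjusted p = 0.00362; -0.63 ± 0.15, adjusted p = 0.0173) and not called in pancreas (0.104 and 0.121). Of the peripheral stalk, Atp5h and Atp5j were called lower in liver (-0.49 ± 0.13 and -0.57 ± 0.13), calls lost without duodenum 1, 3 or 4 each and, for Atp5h, without liver 1 or 2. Atp5o, which links stalk and head, overlapped in all 3 organs (-0.27 ± 0.13 and -0.13 ± 0.13).

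**Figure D4:**
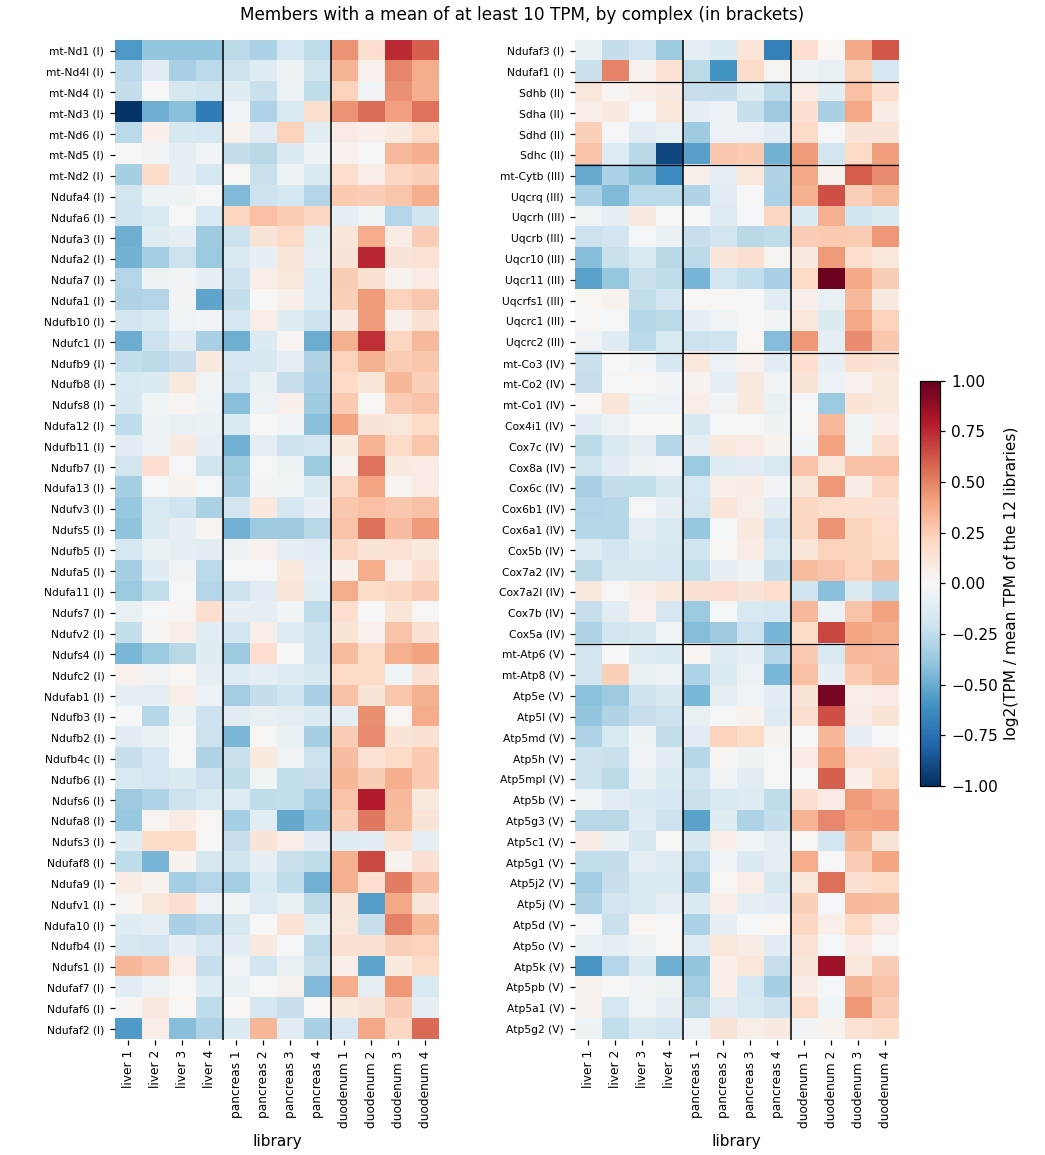
TPM of 96 of the 97 members with a mean of at least 10 TPM in each library, as log2 of the ratio to the gene's mean over the 12 libraries (red above, blue below), with liver, pancreas and duodenum libraries from left to right and complexes separated by lines. Most rows are red in duodenum; Cox7a2l and Ndufa6 are not, and duodenum 2 is pale or blue for most mitochondrial genes.

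Members differed among libraries of the same organ. In duodenum 2, 12 of the 13 mitochondrial members lay below the other 3 duodenum libraries, with a median log2 deviation of -0.36, while 36 of 84 abundant nuclear members lay above them and 33 below. That library had the most estimated counts. Liver 1 had 44 of 84 nuclear members and 9 of 13 mitochondrial members below the other liver libraries, and pancreas 1 had 49 nuclear members below the other pancreas libraries.

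The differences also ran with the length term of the deposited counts, that is the ratio of estimated count to TPM per gene. Across the 84 abundant nuclear members, Spearman's rho between this term and the log2 difference was 0.517 in liver against duodenum, 0.163 in pancreas against duodenum and 0.49 in liver against pancreas. Over all 6620 genes of at least 10 TPM it was 0.067, -0.012 and 0.137. Of the 42 shorter members, 34 were lower in liver, against 11 of the 42 longer ones, and 14 against 7 were lower in pancreas. The medians in liver were -0.62 and -0.42. The deviation of single libraries from their organ ran with the same term, with a rho of -0.673 in duodenum 2, 0.755 in duodenum 3, 0.538 in liver 1 and -0.603 in liver 3. These are correlations across genes of shared libraries and are given as a description; the part of transcript length in the results was not tested.

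**Figure D5:**
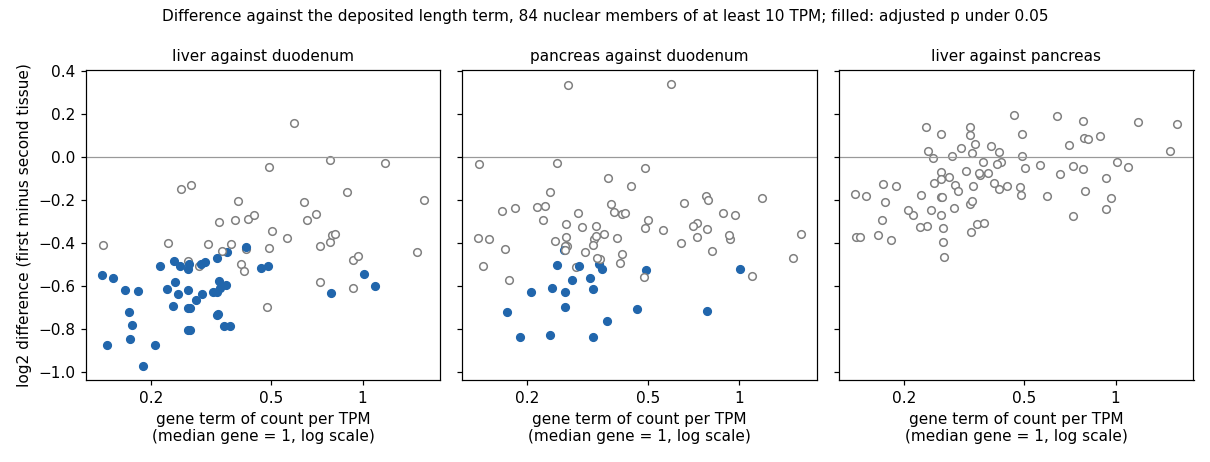
Log2 difference of 84 abundant nuclear members against the gene term of estimated count per TPM (log scale, where the median gene of at least 10 TPM is 1) in the 3 comparisons; filled points passed the test. Shorter genes lie lower in both comparisons of liver, and 34 of the 51 genes lower in liver are among the 42 shorter nuclear members.

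The other genes of the pathway were taken from lists, read against the shares of all genes called given above. Of 18 electron carrier genes, 3 were lower in liver and 4 in pancreas, and 0 were higher. Coq10b, which binds coenzyme Q, was at 11.7, 16.9, 8.999 and 16.1 TPM in liver, 20.6, 15.5, 17.9 and 21.1 TPM in pancreas, and 43.6, 32.4, 34.8 and 32.2 TPM in duodenum. No organ overlapped duodenum, and the difference was -1.59 ± 0.19 in liver (adjusted p = 0.000111) and -1.01 ± 0.19 in pancreas (adjusted p = 0.00333). Cycs, somatic cytochrome c, averaged 23.5 ± 1.92 TPM in liver, 20.6 ± 1.295 TPM in pancreas and 34.2 ± 4.24 TPM in duodenum (SD, n = 4 each) and was lower in both (-0.71 ± 0.15, adjusted p = 0.00726; -0.80 ± 0.15, adjusted p = 0.00283). Etfb, which feeds electrons from fatty acid oxidation, was lower in both (-0.78 ± 0.12 and -0.69 ± 0.12), and Coq2, of ubiquinone synthesis, was lower in pancreas (-1.03 ± 0.23, adjusted p = 0.013). Without duodenum 2 the liver count was 6, and without duodenum 3 it was 3 with 1 gene higher.

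Of 32 assembly factors of complexes II to V, 5 were lower in liver and 3 in pancreas. These shares were near or below those of all genes of at least 10 TPM (15.0% and 13.9%). Cox17, the copper chaperone of complex IV, was at 195, 229, 244 and 219 TPM in liver, 185, 230.1, 233 and 197 TPM in pancreas, and 360.4, 514, 318 and 344 TPM in duodenum, lower at a log2 difference of -0.94 ± 0.16 in liver (adjusted p = 0.00249) and -0.91 ± 0.16 in pancreas (adjusted p = 0.00276) without overlap. Sdhaf4, an assembly factor of complex II, averaged 29.1 ± 3.27 TPM in liver, 16.6 ± 4.39 TPM in pancreas and 39.9 ± 5.06 TPM in duodenum (SD, n = 4 each) and was lower in pancreas (-1.32 ± 0.20, adjusted p = 0.000737). The liver count was 3 without duodenum 3, duodenum 4, liver 3 or pancreas 2, 8 without duodenum 2 and 9 without pancreas 1, 3 or 4. The pancreas count was 7 without duodenum 2 and 5 without liver 1 or pancreas 3. Of 8 complex I assembly factors outside the name pattern, 0 were called in liver and Foxred1 in pancreas (-0.83 ± 0.20, adjusted p = 0.0192, lost without duodenum 3 or pancreas 2). Without duodenum 2 the counts were 1 in liver and 2 in pancreas, and without duodenum 4 there was 1 in liver.

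Of 29 genes for transcription, RNA handling and copying of mitochondrial DNA, 3 were lower and 1 higher in each organ. The share lower was no larger than among all genes of at least 10 TPM (15.0% in liver and 13.9% in pancreas). The DNA polymerase subunits went opposite ways. Polg, the catalytic subunit, was at 8.27, 11.8, 15.8 and 10.7 TPM in liver, 13.1, 5.98, 11.1 and 8.63 TPM in pancreas, and 3.69, 3.34, 5.39 and 4.92 TPM in duodenum, and Polg2, its accessory subunit, was at 10.1, 12.7, 8.11 and 9.19 TPM in liver, 6.07, 6.77, 6.903 and 5.74 TPM in pancreas, and 18.9, 20.1, 24.8 and 28.4 TPM in duodenum. Polg was higher in liver (1.27 ± 0.27, adjusted p = 0.00976) and in pancreas (1.07 ± 0.27, adjusted p = 0.0237, lost without duodenum 1 or 2 or pancreas 1, 3 or 4), and Polg2 was lower in both (-1.38 ± 0.19, adjusted p = 0.000352; -1.93 ± 0.19, adjusted p = 1.56e-05). Elac2, which cuts tRNA ends, was lower in both (-0.67 ± 0.15, lost without duodenum 3 or 4, and -0.86 ± 0.15). The number lower was 5 in each organ without duodenum 2, 1 in liver without duodenum 3 or 4, and otherwise within 1.5 times. Of 10 regulators of respiratory genes, Nrip1, a corepressor, was lower in liver (-1.11 ± 0.21, adjusted p = 0.00407), and Ppargc1b, a coactivator listed below 1.1 TPM in all libraries, was higher in pancreas (1.16 ± 0.32, adjusted p = 0.0364, lost without any of 9 single libraries, among them all 4 of duodenum).

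Of 19 TCA cycle genes, 7 were lower in liver and 6 in pancreas. Mdh2, mitochondrial malate dehydrogenase, was at 121, 115, 118 and 129 TPM in liver, 105, 100.3, 126 and 86.95 TPM in pancreas, and 304, 267, 423 and 324 TPM in duodenum. Neither organ overlapped duodenum, and the difference was -1.62 ± 0.18 in liver (adjusted p = 5.57e-05) and -1.72 ± 0.18 in pancreas (adjusted p = 2.23e-05), a larger fold than for any subunit gene called there. Idh2, the NADP-dependent isocitrate dehydrogenase, averaged 36.02 ± 3.17 TPM in liver, 20.98 ± 0.883 TPM in pancreas and 66.9 ± 12.6 TPM in duodenum (SD, n = 4 each; -1.07 ± 0.17 in liver, adjusted p = 0.000995; -1.75 ± 0.17 in pancreas, adjusted p = 1.14e-05). Idh3a was lower in both, with its liver call lost without liver 1, liver 2 or duodenum 3. Without duodenum 2 the counts were 15 and 12. Of 16 genes of uncoupling, transport and oxidant defence, 5 were lower in liver, and 3 were lower and 1 higher in pancreas. Prdx5, a peroxiredoxin, was at 66.1, 73.5, 74.4 and 85.6 TPM in liver, 59.9, 62.6, 62.1 and 62.2 TPM in pancreas, and 159, 190.1, 171 and 166 TPM in duodenum, lower at a log2 difference of -1.35 ± 0.12 in liver (adjusted p = 9.83e-06) and -1.54 ± 0.12 in pancreas (adjusted p = 1.78e-06), and Sod2, the matrix superoxide dismutase, was lower in both (-0.92 ± 0.18 and -0.89 ± 0.18). The liver count was 11 without duodenum 2, 2 without duodenum 3, duodenum 4 or liver 2 and 3 without liver 4; the pancreas count was 7 lower without duodenum 2. The gene higher in pancreas, Ucp3, was at or below 0.411 TPM in every library, and its call was lost without any of 10 single libraries (all but duodenum 2 and pancreas 3). Slc25a31, among the 5 in liver, averaged 0.0511 TPM in liver and 0.249 TPM in duodenum, and its call was lost without any of 10 single libraries (all but duodenum 1 and 2).

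The mitochondrial ribosome, which makes the 13 mitochondrial proteins, had 23 of 78 protein genes lower in liver, 20 lower in pancreas and 0 higher. The medians were -0.39 and -0.35. Mrps28, of the small ribosomal subunit, averaged 39.3 ± 2.16 TPM in liver, 37.7 ± 2.595 TPM in pancreas and 65.2 ± 7.51 TPM in duodenum (SD, n = 4 each) and was lower in both (-0.89 ± 0.13, adjusted p = 0.000664; -0.86 ± 0.13, adjusted p = 0.00077). Mrpl57 and Mrps5 were lower in liver (-0.88 ± 0.16 and -0.78 ± 0.16) and in pancreas (-0.76 ± 0.16 and -0.82 ± 0.16), and Mrps10 and Mrps27 in pancreas (-1.02 ± 0.22 and -0.98 ± 0.18). Mrpl23 averaged 13.95 ± 1.06 TPM in liver, 24.3 ± 2.78 TPM in pancreas and 21.3 ± 1.71 TPM in duodenum and was the gene of these lists called in liver against pancreas (-0.90 ± 0.16, adjusted p = 0.0127). The liver count was 41 without duodenum 2, 14 without duodenum 1, 11 without duodenum 3 and 13 without duodenum 4, and the pancreas count was 36 without duodenum 2 and 12 without duodenum 3. Of the ribosomal RNAs, mt-Rnr2 was at 3543, 3629, 3309 and 3531 TPM in liver, 2739, 2671, 2572 and 2757 TPM in pancreas, and 3131, 3353, 3364 and 3417 TPM in duodenum. All pancreas libraries lay below all duodenum libraries (-0.38 ± 0.09, adjusted p = 0.0127), and liver and duodenum overlapped. Without liver 2, pancreas 3 and pancreas 4 together, the calls of Polg, Elac2, Idh3a and Slc25a31 in liver, of Coq2, Foxred1, Polg, Elac2, Ppargc1b, Idh3a, Ucp3, Mrpl57, Mrps5, Mrps10 and mt-Rnr2 in pancreas, and of Mrpl23 in liver against pancreas were lost.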

How the data were processed

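Bulk RNA-seq of sorted migratory dendritic cells was used from 12 libraries (liver, pancreas and duodenum, 4 each, 2 mice pooled per library). The authors deposited estimated counts and TPM per gene, made with kallisto against GRCm39 per the submitters' processing notes; the transcript index is not given in the sources used here. Over genes above 1 TPM in every library, the ratio of estimated count to TPM was 1 gene term times 1 library term. The members and gene lists were chosen with earlier results of these data known. Estimated counts were rounded. Genes passing edgeR's filterByExpr (minimum count 10) were fitted over all 12 libraries in edgeR 4.0.16 (R 4.3.3) with TMM scaling, a mean per organ and the robust quasi-likelihood F test, and p-values were adjusted by Benjamini-Hochberg over all 44624 genes tested; a call is an adjusted p under 0.05. A log2 difference is the first organ minus the second, with its SE. Levels are TPM and are the scale for comparing genes. The method was tested on simulated data. Replicate libraries of 1 organ differed by more than counting noise, and the p-values set differences between organs against this spread between libraries. Differences between pools of mice, sorting and library preparation cannot be told apart in it. Libraries of the 3 organs share replicate numbers, but same-numbered libraries did not deviate together (correlations of -0.041 to 0.092). DESeq2 1.42.0 and limma 3.58.1 on log2(TPM + 1) and log2(TPM + 0.1) were alternatives, with other scalings and filters and with libraries left out. Near-identical copies were found with blastn among GENCODE transcripts of GRCm38. Every value column of the deposited tables was assigned to a sample.

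Named whatever their values were the mitochondrially encoded members, the most abundant nuclear member of each complex, the paired and restricted isoforms of complex IV, Ndufa4, Ndufa4l2 and complex II. By test, the 8 called members of largest difference per comparison and up to 3 called genes of each further list were named. Members outside these rules (the nuclear core and several accessory subunits and assembly factors of complex I, Uqcrb, Uqcrh, Uqcrfs1, Cox5b, Cox6c, Cox7c, and the Atp5 genes other than Atp5e, Atp5g3 and Atp5k) were named after their values were seen, as were the library ratios. Atp5if1 was not found under that name. A single member is not reported here by name and is left out of the heat map, but stays in all counts and sums.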

Additional observations from a re-analysis of the deposited data

Results flagged for a closer look

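Among 258 groups of 4 libraries, 19 held a library whose gap to its nearest neighbour as a share of the group's whole range was above Dixon's 95% limit for 4 samples; chance gives about 1 in 20 groups. Of these, 8 were duodenum 2, the highest library 4 times and the lowest 4 times. It was highest for Ndufa2 (610.5 TPM against 395.9 to 402 TPM in the other 3, a share of the range of 0.971), Atp5e (1627 against 879 to 924 TPM, 0.94), Cox6a1 (0.853) and Atp5k (0.851). It was lowest for Cox8a (693 against 783 to 794 TPM, 0.887), mt-Atp6 (2583 against 3436 to 3593 TPM, 0.845), mt-Co3 (0.835) and mt-Atp8 (0.82902). The other duodenum libraries past the limit were duodenum 4, highest for Cox7a1 (0.923) and for the complex IV sum (9410.4 against 9201 to 9216 TPM, 0.931), and duodenum 3, highest for Idh3a (0.846).

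Liver 1 was lowest for mt-Nd1 (1107 against 1257 to 1261 TPM, 0.976) and Cox7a2 (0.88) and highest for Ndufaf5 (0.900). Liver 2 was highest for the summed plasma cell markers (1781 against 420.6 to 492 TPM, 0.948) and for Ucp3 (0.836). Liver 4 was lowest for the summed cDC1 markers (2050.3 against 2235 to 2269 TPM, 0.845). Pancreas 1 was lowest for Cox8a (0.84), and pancreas 2 was highest for Idh3a (0.915).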

How the results depend on the processing

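The numbers of members called were 51 in liver against duodenum, 26 in pancreas against duodenum and 0 in liver against pancreas. Leaving out single libraries gave 31 to 84, 16 to 58 and 0 to 2, with medians of the nuclear members of -0.61 to -0.50, -0.49 to -0.36 and -0.15 to -0.06 and of the mitochondrial members of -0.57 to -0.41, -0.59 to -0.38 and -0.20 to -0.08. DESeq2's Wald test gave 77, 55 and 2. A filter at 1 TPM, which left fewer genes to test, gave 78, 64 (2 of them higher) and 3. The share of genes of at least 10 TPM called lower also rose, from 15.0% in liver and 13.9% in pancreas against duodenum. It was 24.4% and 21.4% with DESeq2, and 25.8% and 24.1% with that filter. limma on log2(TPM + 1) gave 44 in pancreas against duodenum (2 higher), 2 in liver against pancreas and a nuclear median of -0.34 in liver against duodenum; with a pseudocount of 0.1 these were 46 (2 higher), 2 and -0.34. Library totals gave 3 in liver against pancreas and a nuclear median of -0.34 in liver against duodenum. Leaving out liver 2, pancreas 3 and pancreas 4 gave 24 and 7, and leaving out duodenum 2 and pancreas 1 gave 86, 40 and 2. Without duodenum 2 and pancreas 1, 33.4% and 22.3% of genes of at least 10 TPM were called lower in liver and pancreas against duodenum. The causes were not tested. DESeq2 size factors gave 57, 29 and 0, scaling without mitochondrial genes 52, 26 and 0, no filter 51, 25 and 0, and fits of the 8 libraries compared 49, 19 and 0. Adding near-identical copies, an alternative chosen after seeing the data, gave 50, 26 and 0. With Ndufa4 counted in complex IV, complex I summed to 7616 TPM in liver and 10690.4 TPM in duodenum (nuclear genes 5411 and 6927 TPM), and complex IV to 8323, 8631 and 9878 TPM in liver, pancreas and duodenum (nuclear genes 5348, 5529 and 6677 TPM).

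With the replicate number as a block, 44, 25 and 0 members were called, but the labels do not tie the numbers to shared mice, and in 8 of 24 cases (a library set against the 4 of another organ) the best correlation was with its own number, so the pairing was not used.

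No named gene changed direction while called. The median log2 difference of all genes in liver against duodenum was 0.10, 0.02 with DESeq2 size factors and 0.25 with library totals. The 9 members below 1 TPM in every library rest on few reads per library, which limits what could be detected in them.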
